A study of Mus musculus with 12 samples.

Results

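Mt1, Mt2 and Mt3 are the metallothionein genes of the mouse that gave reads in these retinas. They were taken as the 3 of 35976 gene symbols in the count table that carry these names, of which 24484 symbols had at least 1 read in any library. The table also lists Mt4, which held 0 reads in all 12 libraries, which allows a level of up to 0.04 CPM over the 12. The genes were chosen by their levels over the 4 groups, which were known from earlier work on these counts. Their levels and fold changes are therefore a description, with standard errors and without printed p-values. Where a call past a threshold of adjusted p is stated for them, nothing is read from it. The retinas came from pups kept in room air (normoxia) or put through oxygen-induced retinopathy (OIR), a model in which high oxygen stops retinal vessels from growing and the return to room air leaves the tissue short of oxygen. C57BL/6 (WT) pups were taken at postnatal day 15. Those of the WT OIR group had breathed 75% oxygen on postnatal days 7 to 12 and had then been in room air for 3 days. Casp1 KO retinas were labelled normoxia and 3 days after OIR, and the sources used here give neither the age of these pups, their oxygen level, their strain background nor the altered Casp1 allele. Each group had 3 libraries, and the number of animals in a library is not stated, so the spread between libraries may be technical in part.

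Metallothioneins are small proteins rich in cysteine that hold zinc and copper ions and take up reactive oxygen species. Mt1 and Mt2 are made in most tissues and are induced together by zinc, which acts through the sensor and transcription factor Mtf1, and also by glucocorticoids, by cytokines acting through Stat3 and by other kinds of stress. Mt3 is found mainly in the nervous system, where it is known as growth inhibitory factor and responds little to metals, and Mt4 belongs to stratified epithelia. Transcripts of Mt1 and Mt2 are known from Müller glia, the radial glia that span the retina, among other retinal cells.

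The genes lie in a cluster on chromosome 8, all on the plus strand and all protein coding with 3 exons, in the GENCODE vM21 annotation of GRCm38 (mm10). Mt4 runs from 94137197 to 94139031, Mt3 from 94152607 to 94154146, Mt2 from 94172664 to 94173568 and Mt1 from 94179082 to 94180327. Mt1 and Mt2 start only 6418 bases apart. Sharing of reads between the paralogs is limited by sequence, since of the 1317 runs of 75 bases in Mt1 transcripts and the 1065 in Mt3 transcripts, 0 occur in another gene's transcripts. For Mt2, 160 of 529 such runs (30.25%) occur in Gm45774, an annotated gene on the opposite strand. The strand setting of the counting is not given in the sources used here, so Mt2 reads cannot be told from reads of Gm45774.

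Since Mt1 and Mt2 moved together and Mt3 did not, the promoter of each is printed, 250 bases before to 50 after the RefSeq start site in GRCm38.p6, all on the plus strand. Capitals mark the core of the metal response element, the letters TGCACNC or TGCGCNC on either strand, which Mtf1 is known to bind.
Mt1, chr8:94178839-94179138: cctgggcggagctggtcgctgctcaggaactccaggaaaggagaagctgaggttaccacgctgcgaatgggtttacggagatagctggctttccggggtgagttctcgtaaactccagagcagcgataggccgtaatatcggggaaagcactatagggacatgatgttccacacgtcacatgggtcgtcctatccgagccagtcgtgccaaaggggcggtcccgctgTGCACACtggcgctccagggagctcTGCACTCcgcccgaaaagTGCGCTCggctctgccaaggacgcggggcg
Mt2, chr8:94172368-94172667: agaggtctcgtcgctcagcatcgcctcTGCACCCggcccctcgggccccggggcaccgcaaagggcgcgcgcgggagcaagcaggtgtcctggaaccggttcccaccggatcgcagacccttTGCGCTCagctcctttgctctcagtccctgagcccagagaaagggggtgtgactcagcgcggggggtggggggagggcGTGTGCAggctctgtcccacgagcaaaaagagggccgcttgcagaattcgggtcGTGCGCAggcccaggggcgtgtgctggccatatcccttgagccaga
Mt3, chr8:94152357-94152656: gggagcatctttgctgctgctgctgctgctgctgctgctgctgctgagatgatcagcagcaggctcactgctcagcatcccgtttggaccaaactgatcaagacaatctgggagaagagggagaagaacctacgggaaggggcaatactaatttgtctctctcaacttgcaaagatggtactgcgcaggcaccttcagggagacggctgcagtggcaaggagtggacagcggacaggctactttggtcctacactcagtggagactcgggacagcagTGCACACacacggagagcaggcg
The window of Mt1 held 3 cores and that of Mt2 held 4, against 1 each for Mt3 and Mt4. Of 32851 RefSeq promoters of the same length, 25.7% held at least 1 core, 1.97% at least 3 and 0.52% at least 4. Counting from 1 at the start site and from -1 just before it, the cores of Mt1 began at -23, 3 and 21, those of Mt2 at -223, -128, -50 and 5, and that of Mt3 at 28. The core of the hypoxia response element, ACGTG or GCGTG, was found at 2 places each in Mt1 and Mt2, as in 20.64% of promoters with at least as many, and at none in Mt3. One of the Mt2 matches, at -52, overlaps the metal response core at -50. The glucocorticoid pattern ACANNNTGT occurred once in Mt1, as in 6.8% of promoters, and the antioxidant pattern TGACNNNGC once in Mt2, as in 12.4%. No window of the 4 genes held the STAT pattern TTCNNNGAA or the E-box CACGTG. These matches are descriptions of letters and not bound sites. Positions and counts depend on the RefSeq start sites used, and bases outside the windows were not searched. The Mt2 window ends at 94172667, close to the GENCODE start of that gene at 94172664. A count of cores or other patterns therefore describes these windows and not the whole promoters.

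The libraries held 3391203 to 22815830 reads on genes, and WT normoxia replicate 2 was the deepest. WT OIR replicate 3 stood furthest from the other libraries of its group, where chi-square over its degrees of freedom was 14 and 13.2, against 3.48 to 9.34 for the other pairs of replicates. Rod markers summed to 47685 to 54183 CPM in every library, as the defining cells of the retina. Casp1 went against the labels, since the libraries named WT gave 7 of its reads and those named Casp1 KO gave 126, so that each genotype below means the libraries labelled so. Reads at the 3′ end that lie outside the altered bases of an allele would not check it. Single libraries held 0 to 3 Casp1 reads under the WT label and 10 to 45 under the Casp1 KO label. Whether the genotype labels were exchanged was not tested, and the direction of each difference between genotypes depends on them.

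Mt1 had the lowest levels in Casp1 KO normoxia and the highest in Casp1 KO OIR, with WT between them. Levels are CPM, reads scaled to a common library size by the TMM method over the 12 libraries, and each transcript gives reads from its 3′ end alone, so that levels of different genes need no scaling by length. The 3 WT normoxia libraries held 137, 137 and 150 CPM, and the 3 WT OIR libraries 287, 243 and 319 CPM. In Casp1 KO normoxia the libraries held 105, 90.1 and 93.7 CPM, and in Casp1 KO OIR 338, 383 and 346 CPM. The 4 groups did not overlap for Mt1 in any step of this order. Of all genes tested, 8.53% were higher without overlap in OIR in WT and 8.56% in Casp1 KO, 6.53% were lower without overlap in Casp1 KO than in WT in normoxia, and 5.41% were higher in OIR. Their means were 96.4 ± 8.01, 141 ± 7.79, 283 ± 38.1 and 355 ± 24 CPM (SD, n = 3), from Casp1 KO normoxia through WT normoxia and WT OIR to Casp1 KO OIR.

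Mt2 gave the same order of groups at lower levels. WT normoxia libraries held 51.3, 51.9 and 52.0 CPM, and those of WT OIR 96.5, 117 and 149 CPM. Casp1 KO normoxia libraries were the lowest, with 31.2, 27.3 and 34.3 CPM, and Casp1 KO OIR libraries the highest, with 160, 176 and 160 CPM. Neighbouring groups did not overlap. The closest neighbours were WT OIR, where replicate 3 was the highest at 149 CPM, and Casp1 KO OIR, where the lowest library held 160 CPM. The group means were 30.9 ± 3.50, 51.7 ± 0.359, 121 ± 26.3 and 166 ± 9.13 CPM (SD, n = 3) in the order given for Mt1. Replicate 3 of WT OIR was the highest of its group for both genes.

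Mt3, the isoform of the nervous system, was the least abundant of the 3 and did not follow the others. WT normoxia libraries held 20.1, 14.95 and 11.5 CPM, and WT OIR libraries 11.5, 9.39 and 11.4 CPM. For Casp1 KO the values were 22.4, 15.7 and 9.42 CPM in normoxia and 12.01, 11.4 and 13.4 CPM in OIR. The normoxia libraries spread more than those of OIR in both genotypes, and each step in the order of the 4 means, 10.8 ± 1.21 in WT OIR, 12.3 ± 1.01 in Casp1 KO OIR, 15.5 ± 4.301 in WT normoxia and 15.8 ± 6.51 in Casp1 KO normoxia (SD, n = 3), joined groups that overlapped. Between WT OIR and WT normoxia the libraries touched, with a highest OIR value of 11.51 and a lowest normoxia value of 11.52 CPM, where 8.16% of genes were lower in OIR without overlap. Counting error does not span the spread in Casp1 KO normoxia, where the exact 95% Poisson interval was 18.6 to 26.8 CPM in replicate 1 and 6.70 to 12.9 CPM in replicate 3. Such intervals cover counting error only, and no molecular identifiers are described for these reads.

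**Figure D1:**
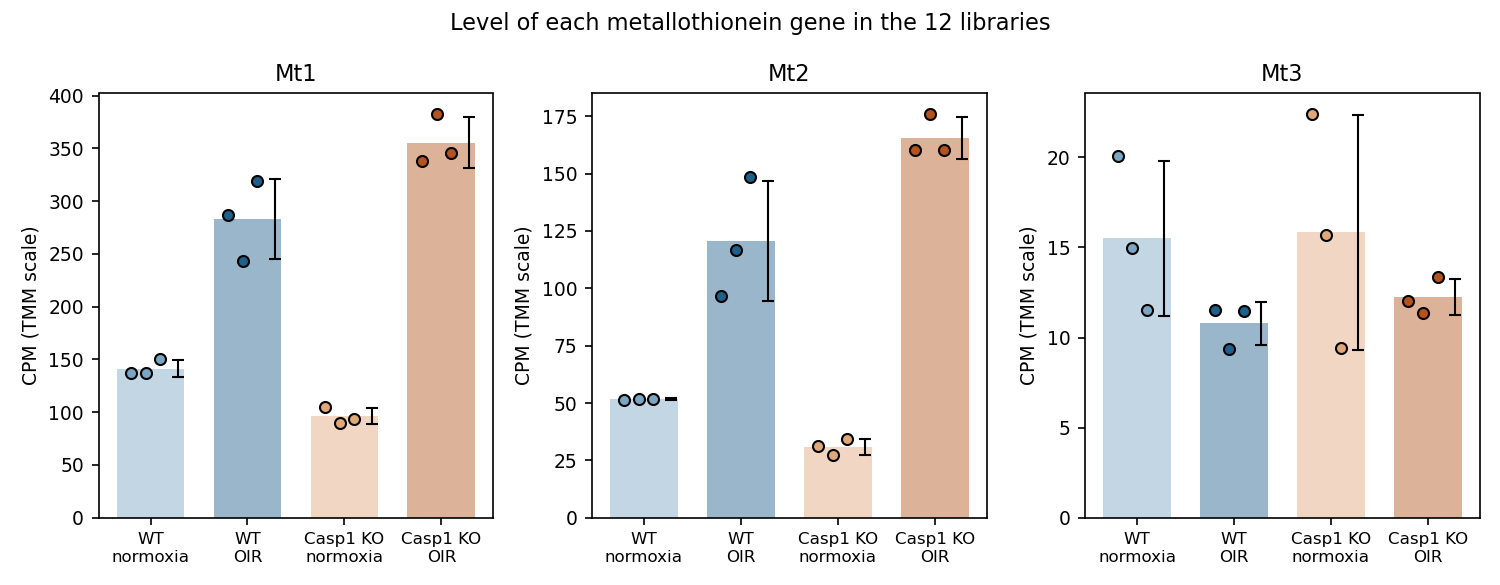
Level of Mt1, Mt2 and Mt3 in CPM on the TMM scale (y axis, linear from 0) by group (x axis), with points for the 3 libraries, bars for their mean and whiskers for ± 1 SD. Mt1 and Mt2 rank the groups alike without overlap, from Casp1 KO normoxia (means 96.4 and 30.9) to Casp1 KO OIR (355 and 166), while the Mt3 libraries lie between 9.39 and 22.4 CPM and groups next to each other in the order of their means overlap.

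Over the 12 libraries Mt1 gave 15009 reads, Mt2 6252 and Mt3 1050. By group mean, Mt1 ranked 2220 of the 24484 genes in Casp1 KO normoxia, 1513 in WT normoxia, 597 in WT OIR and 424 in Casp1 KO OIR. Mt2 moved from rank 5658 in Casp1 KO normoxia and 3968 in WT normoxia to 1767 in WT OIR and 1195 in Casp1 KO OIR. Mt3 stayed between ranks 7977 and 9237. Per Mt3 read there were on average 13.2 reads of Mt1 and Mt2 together in WT normoxia and 37.5 in WT OIR, and 9.05 in Casp1 KO normoxia and 42.8 in Casp1 KO OIR.

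The first question was how the return to room air after high oxygen left the metallothioneins against normoxia. In WT, Mt1 was 1.99-fold and Mt2 2.32-fold higher in OIR, with log2 fold changes of 0.99 ± 0.133 and 1.21 ± 0.157 (SE). Mt3 had a log2 fold change of -0.54 ± 0.317. Mt1 and Mt2, 2 of the 3 genes, were past an adjusted p of 0.05 in edgeR's quasi-likelihood test, where 3.88% of the 22853 genes tested were called, 1.58% called higher and 2.29% lower. In Casp1 KO the rises were larger, 3.71-fold for Mt1 and 5.38-fold for Mt2, with log2 fold changes of 1.89 ± 0.0966 and 2.43 ± 0.132, and Mt3 had -0.37 ± 0.297. Again 2 of the 3 were called, against 4.64% of the 22387 genes tested, 2.61% called higher and 2.03% lower. Since the levels over the 4 groups chose the genes, nothing is read from these counts of calls.

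The second question was whether the genotypes differed within a condition. In normoxia Mt1 and Mt2 were lower in Casp1 KO, at 0.688 and 0.601 of the WT level, with log2 fold changes of -0.54 ± 0.111 and -0.73 ± 0.173. Both were called, against 1.04% of the 22480 genes tested, 0.476% called higher and 0.56% lower, a count from which nothing is read for the same reason. Mt3 did not move beyond its error, with 0.05 ± 0.275. The call of Mt2 rested on Casp1 KO normoxia replicate 2, without which its log2 fold change was -0.66 and no longer passed.

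In OIR the sign was the other way, with Mt1 1.25-fold and Mt2 1.37-fold higher in Casp1 KO, or 0.33 ± 0.128 and 0.45 ± 0.143 on the log2 scale. By edgeR's test 0 of the 3 passed the threshold after adjustment, against 0.575% of the 22774 genes called, 0.263% higher and 0.312% lower. By DESeq2 neither Mt1 nor Mt2 passed, and Mt3 was given no adjusted p. Without WT OIR replicate 3, the library that stood apart and held the most Mt1 and Mt2 of its group, the log2 fold changes were 0.44 and 0.65 and both were past the threshold. The choice of the genes by their levels leaves nothing to be read from these calls, with or without that library. For Mt3 the value was 0.19 ± 0.339.

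The change in OIR in Casp1 KO minus the change in WT, the interaction of both factors over the 12 libraries, was 0.87 ± 0.165 for Mt1 and 1.19 ± 0.204 for Mt2 on the log2 scale, or 1.83-fold and 2.28-fold. For Mt3 it was 0.15 ± 0.437. Mt1 and Mt2 were called, against 1.13% of 24484 genes, and again the choice of the genes leaves nothing to be read from that count. This value and the comparisons within genotypes and conditions use the same libraries, so they are not separate pieces of evidence. A lower level in Casp1 KO normoxia (-0.54 for Mt1 and -0.73 for Mt2) and a higher level in Casp1 KO OIR (0.33 and 0.45) both enter it.

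**Figure D2:**
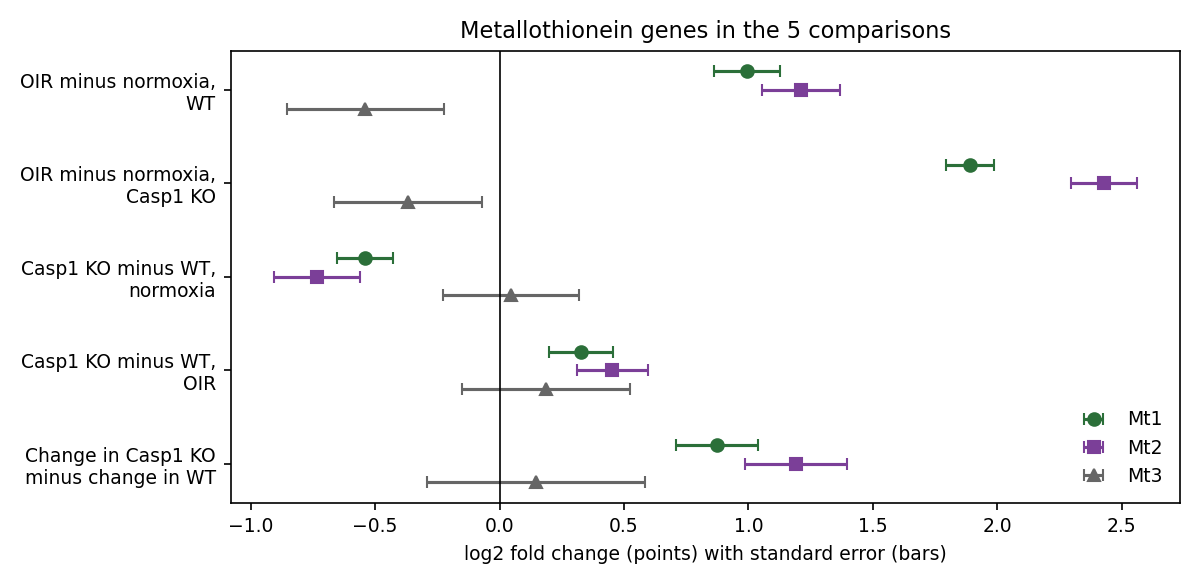
Log2 fold change (x axis) of Mt1, Mt2 and Mt3 in the 5 comparisons (y axis), with bars for ± 1 SE from edgeR. Mt1 and Mt2 lie side by side in each comparison, furthest right in Casp1 KO OIR against normoxia (1.89 and 2.43) and left of 0 in Casp1 KO against WT in normoxia (-0.54 and -0.73), whereas Mt3 stays between -0.54 and 0.19.

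The balance between Mt2 and Mt1 also differed between groups. Of the reads of both genes, Mt2 made up 27.3%, 27.5% and 25.7% in WT normoxia and 22.8%, 23.3% and 26.8% in Casp1 KO normoxia. Casp1 KO OIR libraries held 32.1%, 31.5% and 31.7%, above each of the normoxia libraries. WT OIR was mixed, with 25.2% in replicate 1 and 32.4% and 31.8% in replicates 2 and 3. The exact 95% binomial interval of WT OIR replicate 1 ran from 23.03% to 27.4% and did not reach those of the other OIR libraries, the lowest of which began at 29.7%. Replicate 1 also held the least Mt2 of its group, at 96.5 CPM, while its Mt1 lay between the others. Mt1 reads per Mt2 read averaged 2.73 ± 0.141 in WT normoxia, 2.40 ± 0.496 in WT OIR, 3.14 ± 0.353 in Casp1 KO normoxia and 2.15 ± 0.0322 in Casp1 KO OIR (SD, n = 3).

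**Figure D3:**
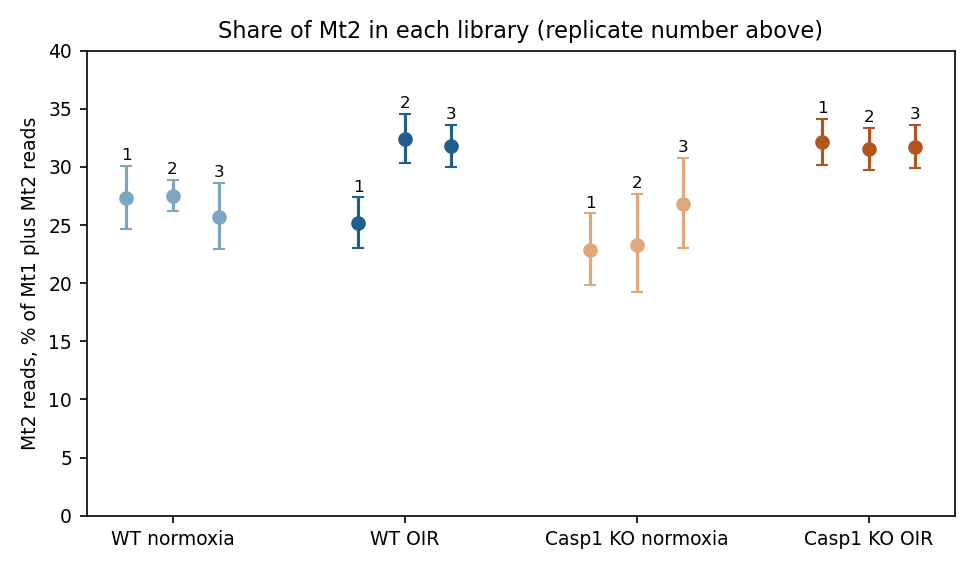
Reads of Mt2 as a percent of the reads of Mt1 and Mt2 together (y axis, linear from 0) in each library, by group (x axis), with exact 95% binomial intervals and replicate numbers above. The Casp1 KO OIR libraries lie at 31.5% to 32.1%, above all normoxia libraries (22.8% to 27.5%), and WT OIR replicate 1 (25.2%) lies among the normoxia libraries.

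Müller glial genes moved with the metallothioneins in part. The 14 Müller markers, all of which had reads in every group, summed to 4024 to 4114 CPM in WT normoxia, 3342 to 3513 in WT OIR, 2988 to 3121 in Casp1 KO normoxia and 4272 to 4483 in Casp1 KO OIR. Thus the marker sum was lower in WT OIR than in WT normoxia, where Mt1 and Mt2 were higher, and it was higher in Casp1 KO OIR than in Casp1 KO normoxia, where they were higher too. Of the 14 markers, 1 rose and 3 fell (Rlbp1, Glul and Aqp4) in WT OIR, beside 1.58% and 2.29% of all genes, and 9 rose and 1 fell in Casp1 KO OIR, beside 2.61% and 2.03%. Between genotypes in normoxia 0 were higher and 6 lower in Casp1 KO, beside 0.476% and 0.56% of all genes. In OIR 1 was higher in Casp1 KO (Glul) and 0 lower, beside 0.263% and 0.312%, or 6 and 1 without WT OIR replicate 3. In the interaction 5 of the 14 were called, beside 1.13% of all genes, each with a positive value for the change in Casp1 KO minus that in WT. The sum of Mt1 and Mt2 was also set over the marker sum of the same library, a ratio chosen after the levels had been seen. It came to 0.0475 ± 0.00204 in WT normoxia, 0.117 ± 0.0140 in WT OIR, 0.0415 ± 0.00406 in Casp1 KO normoxia and 0.119 ± 0.00584 in Casp1 KO OIR (SD, n = 3). By this ratio OIR stood 2.47-fold above normoxia in WT and 2.86-fold in Casp1 KO, against 2.09-fold and 4.09-fold for the summed CPM. Between genotypes the ratio in Casp1 KO was 0.874 of that in WT in normoxia and 1.01 of it in OIR, against 0.66 and 1.29 for the summed CPM. The OIR groups overlapped on this ratio (0.108 to 0.133 in WT and 0.113 to 0.1247 in Casp1 KO), and the normoxia groups nearly touched (0.0459 to 0.0498 and 0.0376 to 0.0457). In whole retina, fewer cells of a type and less RNA per cell cannot be told apart.

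Markers of other cells and tissues also differed between the groups, and their counts stand beside 1.58% of all genes called higher and 2.29% lower in WT OIR, and 2.61% and 2.03% in Casp1 KO OIR. Of 13 lens crystallins, 13 rose in Casp1 KO OIR, from 1009 to 1077 CPM in all in normoxia to 1849 to 2035, while 0 passed in WT by edgeR or DESeq2 (1 at an unadjusted p under 0.05), where they summed to 913 to 1002 CPM in normoxia and 576 to 1253 in OIR. Of 8 markers of the retinal pigment epithelium, 4 rose in Casp1 KO OIR, with sums of 1006 to 1029 CPM in normoxia and 1540 to 1669 in OIR. In WT 2 of them rose and 1 fell, with sums of 889 to 902 and 995 to 1159 CPM. Oligodendrocyte markers summed to 253 to 313 CPM in WT normoxia and to 38.5 to 71.3 in the other 9 libraries, with Mog and Cldn11 at 0 in Casp1 KO normoxia. Of 8 retinal ganglion cell markers, 0 rose and 6 fell in each genotype, with sums of 2691 to 2911 CPM in normoxia and 1329 to 1658 in OIR in WT, and 2939 to 3167 and 1615 to 1661 in Casp1 KO. Microglia and macrophage markers, 8 genes, had 1 that rose in WT (C1qa) and 2 in Casp1 KO (C1qa and C1qb), with sums of 59.7 to 69.9 CPM in normoxia and 91.6 to 104 in OIR in WT, and 50.1 to 63.0 and 88.9 to 109 in Casp1 KO. Of 6 red blood cell genes, 4 rose in WT OIR, where they summed to 90.9 to 398 CPM against 121 to 147 in normoxia, and 0 were called in Casp1 KO by edgeR or DESeq2 (1 at an unadjusted p under 0.05), with sums of 151 to 155 and 129 to 167 CPM. Of 8 endothelial markers, 1 rose in WT (Pecam1), with sums of 106 to 126 CPM in normoxia and 126 to 204 in OIR, and 0 were called in Casp1 KO by edgeR or DESeq2 (1 at an unadjusted p under 0.05), with 129 to 142 and 135 to 161 CPM. Astrocyte markers, 8 genes, summed to 1145 to 1321 CPM in all 12 libraries, and 1 rose and 1 fell in each genotype, Gfap rising in both, Aldoc falling in WT and S100b in Casp1 KO. The part of these cells and tissues in the levels of Mt1 and Mt2 was not tested.

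Genes of the pathways known to act on metallothioneins were then described from 6 lists, chosen with results of these data known. Of the genes of all 6 lists, 15 rose and 2 fell of 110 tested in WT OIR, and 28 rose and 0 fell of 109 in Casp1 KO OIR. Of all genes, 1.58% were called higher and 2.29% lower in WT, and 2.61% and 2.03% in Casp1 KO. These shares are of every gene with at least 1 read, 22853 in WT and 22387 in Casp1 KO. Of these, 16710 and 16065 had more than 3 reads in a library of each group. In the lists 104 and 102 genes did, so the shares are not of genes at like levels. Of 24 genes of zinc transport and sensing, 0 were called in either genotype by edgeR or DESeq2, with 2 in WT and 1 in Casp1 KO at an unadjusted p under 0.05. Their median log2 fold change was -0.02 in WT and 0.11 in Casp1 KO, where that of all genes was 0.02 and 0.01. Mtf1, the zinc sensor that binds metal response elements, held 46.1 ± 3.64 CPM in WT normoxia, 49.1 ± 2.45 in WT OIR, 46.8 ± 6.25 in Casp1 KO normoxia and 48.6 ± 3.95 in Casp1 KO OIR (SD, n = 3). Slc30a1, a zinc exporter and a classical Mtf1 target, had log2 fold changes of 0.41 ± 0.197 in WT (adjusted p = 0.337, edgeR) and 0.11 ± 0.189 in Casp1 KO (adjusted p = 0.823). Slc39a10, a zinc importer, had -0.03 ± 0.188 and -0.16 ± 0.185. Of 11 genes of copper handling 1 rose in each genotype, Cp, the copper oxidase ceruloplasmin, with 0.91 ± 0.141 in WT and 0.76 ± 0.112 in Casp1 KO.

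Of 20 Stat3 and acute phase genes, 8 rose in WT and 10 in Casp1 KO, beside 1.58% and 2.61% of all genes. In both genotypes 0 fell, beside 2.29% and 2.03%. The median log2 fold change of the list was 0.995 in WT and 1.32 in Casp1 KO. Stat3 itself, the cytokine-activated transcription factor, rose by 0.88 ± 0.150 in WT and 0.92 ± 0.119 in Casp1 KO. Cebpd, a transcription factor of the acute phase, rose by 2.26 ± 0.284 and 2.27 ± 0.266, and the glial filament gene Gfap by 1.62 ± 0.184 and 2.31 ± 0.172. The filament gene Vim rose by 0.97 ± 0.137 and 1.32 ± 0.104. Edn2, an endothelin, had 0 reads in WT normoxia and 41 in WT OIR, and was at least 31.2-fold higher in OIR against the 3 reads over the group that a count of 0 allows, or at least 9.68-fold without WT normoxia replicate 2, the deepest library. In the interaction 0 of the 20 were called by edgeR or DESeq2, beside 1.13% of all genes by edgeR. Of the 20, 3 were at an unadjusted p under 0.05.

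Of the glucocorticoid-responsive genes, 2 rose (Cdkn1a and Lcn2) and 1 fell of 18 in WT, beside 1.58% and 2.29% of all genes. In Casp1 KO 5 rose (Fkbp5, Sgk1, Cdkn1a, Nfkbia and Ddit4) and 0 fell of 17, beside 2.61% and 2.03%. The gene that fell in WT, Tsc22d3, encodes the glucocorticoid-induced leucine zipper and changed by -0.68 ± 0.198 (adjusted p = 0.0223, edgeR). In Casp1 KO it had -0.19 ± 0.185 (adjusted p = 0.653). The call in WT was lost without any one of 5 of the 6 libraries (adjusted p of 0.0534 to 0.135), all but WT OIR replicate 3. Sgk1, a kinase induced by glucocorticoids, had 0.25 ± 0.187 in WT and rose by 1.09 ± 0.180 in Casp1 KO. Nfkbia, the inhibitor of NF-kappaB, had 0.16 ± 0.152 in WT and rose by 0.75 ± 0.115 in Casp1 KO, and neither Sgk1 nor Nfkbia was called in the interaction (adjusted p = 0.104 and 0.146, edgeR), though both were without WT OIR replicate 3 (0.0235 and 0.000154). Members of this list are also targets of other signals.

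Of 23 hypoxia-responsive genes, 5 rose and 1 fell in WT, beside 1.58% and 2.29% of all genes. In Casp1 KO 12 rose and 0 fell, beside 2.61% and 2.03%. Vegfa, the growth factor of retinal vessels, rose by 0.84 ± 0.145 in WT and 0.96 ± 0.119 in Casp1 KO. Egln3, an oxygen-sensing hydroxylase, rose by 2.21 ± 0.469 and 2.38 ± 0.608, and Selenbp1, a selenium-binding protein, by 1.12 ± 0.234 and 2.10 ± 0.238. Adm, the vasodilator adrenomedullin, had 0 reads in WT normoxia and 78 in WT OIR, at least 59.8-fold more, or at least 18.5-fold without WT normoxia replicate 2. The gene that fell in WT was Hk2, a hexokinase, with -0.52 ± 0.135, and it had 0.10 ± 0.104 in Casp1 KO. Of the 110 genes of all 6 lists tested, 2 were called in the interaction, beside 1.13% of all genes. Without WT OIR replicate 3 there were 10, while the calls over all genes went from 277 to 597. Ddit4, a stress-induced inhibitor of mTOR, held 288 ± 33.6 and 294 ± 32.8 CPM in WT normoxia and OIR, and 231 ± 22.7 and 356 ± 32.3 CPM in Casp1 KO normoxia and OIR, with an interaction of 0.60 ± 0.155 (adjusted p = 0.0168, edgeR). Slc2a1, the glucose transporter of the blood-retina barrier and of glia, held 149 ± 18.8 and 161 ± 28.2 CPM in WT, and 124 ± 11.8 and 227 ± 4.65 CPM in Casp1 KO, with an interaction of 0.76 ± 0.172 (adjusted p = 0.00259). The call of Slc2a1 held without each library in turn, with adjusted p-values up to 0.0399, whereas that of Ddit4 was lost without any one of 5 libraries, with adjusted p-values up to 0.133. Both had their lowest mean in Casp1 KO normoxia and their highest in Casp1 KO OIR, as Mt1 and Mt2 did. Of 16 genes of the NRF2 antioxidant list, 0 passed in WT by edgeR or DESeq2 (4 at an unadjusted p under 0.05) and 1 rose in Casp1 KO, Hmox1, the heme oxygenase, by 3.08 ± 0.504, where it went from 1.42 ± 0.921 to 11.8 ± 2.07 CPM (SD, n = 3).

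**Figure D4:**
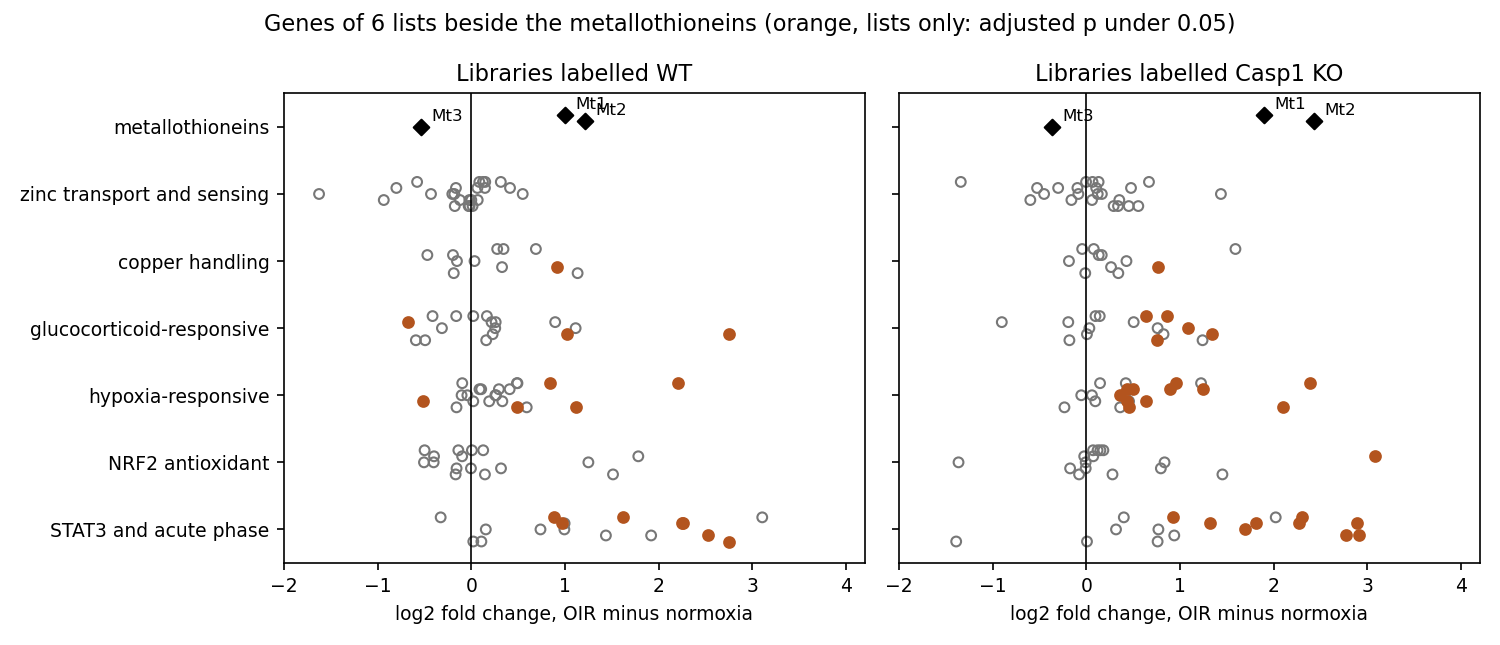
Log2 fold change of OIR against normoxia (x axis) in WT (left) and Casp1 KO (right) for Mt1, Mt2 and Mt3 (black diamonds) and for the genes of 6 lists (circles, orange where the adjusted p of edgeR's test was under 0.05). Genes with too few reads for a fold change in either group are left out, which drops Adm and Edn2 on both sides, though edgeR called both higher. The zinc list has 0 orange circles on both sides, and the Stat3 and acute phase list has its median at 0.995 and 1.32.

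The genes whose levels ran most like each metallothionein were found by Pearson's r of log2 CPM over the 12 libraries, among 11038 other genes with at least 10 reads in every library. These libraries share the same 4 groups, so r describes the pattern of groups and carries no p. The closest gene to Mt1 was Mt2, and the reverse, with r = 0.988. After it came Lrrc2 (0.97), the calcium-binding protein gene S100a6 (0.961), Pdpn (0.951), which encodes the membrane glycoprotein podoplanin, and Gfap (0.95) for Mt1. For Mt2 they were Selenbp1 (0.96), the AP-1 gene Junb (0.959), the glial transcription factor Sox9 (0.955) and the glial glutamate transporter Slc1a3 (0.954). Sox9 and Slc1a3 are also among the 14 Müller markers summed above. S100a6 had 16.4 ± 0.109 CPM in WT normoxia, 66.5 ± 4.28 in WT OIR, 13.1 ± 1.48 in Casp1 KO normoxia and 76.0 ± 12.2 in Casp1 KO OIR, a wider range than Mt1 as a fold, though not in CPM. Sox9 had 71.3 ± 5.63, 95.0 ± 7.56, 58.0 ± 4.10 and 121 ± 14.8 CPM in the same order, a narrower one.

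Mt3 had an r of -0.432 with Mt1 and -0.476 with Mt2. Its closest genes were Dgkh, a diacylglycerol kinase (0.866), the chromatin organizer Satb1 (0.847), Ptrhd1 (0.818) and Mvk and Sqle (0.807 and 0.803), which encode enzymes of cholesterol synthesis. By edgeR 0 of the 5 were called in OIR against normoxia in either genotype, beside 3.88% of all genes in WT and 4.64% in Casp1 KO. The 5 were chosen for likeness to Mt3, which was not called either, so nothing is read from this count. The means of all 5, like that of Mt3, were lower in OIR than in normoxia in both genotypes. In WT the highest OIR and lowest normoxia values were 65.9 and 68.9 CPM for Dgkh, 74.3 and 83.8 for Satb1, and 36.5 and 38.3 for Sqle. Of all genes tested in WT, 8.16% were lower in OIR without overlap. Ptrhd1 and Mvk overlapped. In Casp1 KO only Sqle did not overlap, at 34.6 and 35.0 CPM, and the share of all genes is not given here. Likeness to Mt3 over these same libraries chose the 5, so nothing is read from their direction or overlap.

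**Figure D5:**
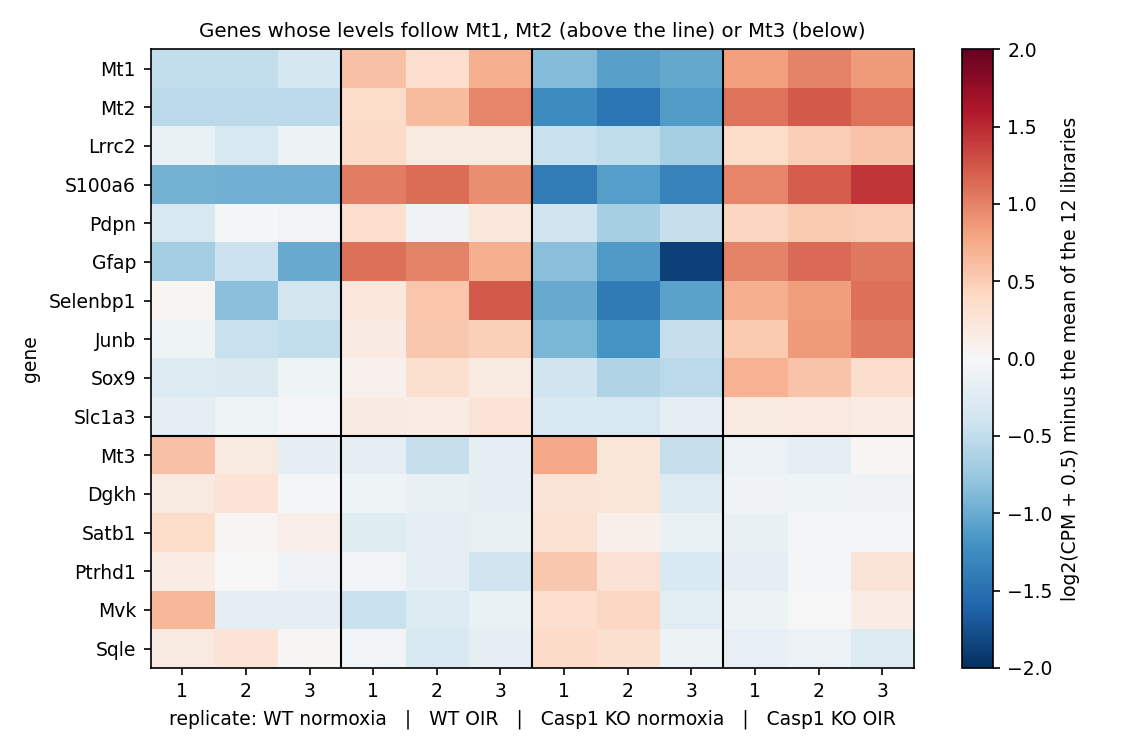
Log2(CPM + 0.5) minus the mean of the 12 libraries (colour, red higher and blue lower) for Mt1, Mt2 and the genes most like them (above the line) and for Mt3 and the 5 genes most like it (below), in the 3 libraries of each group (x axis). Casp1 KO normoxia is the bluest block and Casp1 KO OIR among the reddest for Mt1 and Mt2, with group means of 96.4 and 355 CPM for Mt1, while the row of Mt3 itself holds no block of one colour in normoxia.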

How the data were processed

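The 12 retinal RNA libraries fall into 4 groups of 3 by the labels. The authors made QuantSeq 3′ libraries, aligned reads to mm10 with STAR 2.7.5a and counted them per gene with HTSeq 0.6.1, as the submitters' processing notes name the versions, and deposited raw counts per gene symbol. Annotation, strand and multi-mapping settings are not given in the sources used here. The members and lists were chosen with earlier results of these data known.

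Counts were fitted with edgeR 4.0.16 in R 4.3.3 (TMM, quasi-likelihood test, a minimum of 1 count over the fitted libraries, prior count 0.125, Benjamini-Hochberg adjustment, threshold 0.05), tested first on simulated data. Comparisons of 2 groups used their own 6 libraries, and the interaction used 12. Totals of 3391203 to 22815830 reads set the precision. A count of 0 allows 3 counts. From each list and OIR comparison at most 4 called genes with the smallest p were to be named, plus Mtf1, Slc30a1 and Slc39a10, and the 5 genes most like each member. Members of lists named beyond these were chosen after their values were seen. Alternatives were DESeq2 1.42.0 or its size factors, library size alone, other filters, a prior count of 2, a replicate block, all 12 libraries in one fit and each library left out. Promoters came from RefSeq, where 4 of 4 metallothionein symbols matched.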

Additional observations from a re-analysis of the deposited data

Results flagged for a closer look

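The change in OIR was called different between the genotypes, by the test of the difference itself over the 12 libraries, for 4 genes. These are named above from the lists, which were chosen with earlier results of these data known. On the log2 scale the change in Casp1 KO minus the change in WT was 0.60 for Ddit4, 0.76 for Slc2a1, 1.09 for Glul and 0.99 for Rlbp1. Of all genes, 1.13% were called. As given above, the call of Ddit4 was lost when single libraries were left out. With filterByExpr, or a minimum of 10 counts in every library, 1 gene of the 6 pathway lists was called instead of 2. Glul and Rlbp1, the Müller glial genes of glutamine synthetase and of a retinaldehyde-binding protein, had adjusted p-values of 2.0e-12 and 1.4e-07 in edgeR's test. Other marker genes were called in this difference as well. Positive values were found for Dkk3, Apoe and Clu of the Müller list, 9 of 13 lens crystallins and 6 of 8 oligodendrocyte markers. The same held for 2 of 8 pigment epithelium markers, Rpe65 and Lrat. Negative values were found for 2 of 6 red blood cell genes and 1 of 8 endothelial markers. Cldn11, among these oligodendrocyte markers, had 0 reads in Casp1 KO normoxia and is given no fold change. The change in Casp1 KO minus that in WT was 0.87 for Mt1, 1.19 for Mt2 and 0.69 for Pdpn. Mt1 and Mt2 were chosen by their levels over the groups and Pdpn by its likeness to Mt1 over the same libraries, so for these 3 it is a description. Pdpn, known from several epithelia and glia, held 95.1 ± 10.2 CPM in WT normoxia, 117 ± 16.6 in WT OIR, 73.3 ± 7.11 in Casp1 KO normoxia and 146 ± 4.67 in Casp1 KO OIR (SD, n = 3).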

How the results depend on the processing

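Of 225 values of the 3 genes under alternatives, 218 were counted as keeping their direction and their side of the threshold. With a prior count of 2 the adjusted p stays that of the main fit, so no call could move there. DESeq2 gave Mt3 no adjusted p between genotypes in OIR, and that value was counted as kept by its direction alone. Since their levels chose the genes, nothing is read from their calls here. Mt3 reversed in Casp1 KO against WT in normoxia without WT normoxia replicate 3 (-0.11) or Casp1 KO normoxia replicate 1 (-0.31), and in the interaction without WT normoxia replicate 1 (-0.06) or Casp1 KO normoxia replicate 3 (-0.12). With each library left out, the log2 fold change of Mt1 ran from 0.90 to 1.10 in WT OIR, 1.82 to 1.96 in Casp1 KO OIR, -0.61 to -0.50 and 0.23 to 0.44 between genotypes in normoxia and OIR, and 0.78 to 0.97 in the interaction. For Mt2 the ranges were 1.04 to 1.35, 2.35 to 2.51, -0.81 to -0.66, 0.32 to 0.65 and 1.06 to 1.37, and for Mt3 -0.70 to -0.32, -0.63 to -0.01, -0.31 to 0.31, 0.09 to 0.25 and -0.12 to 0.50. The replicate numbers did not pair the samples (r of -0.0495 to 0.065 between samples with the same number), and with the number as a replicate block 15 of 15 values of the genes kept their call, with 0.98 for Mt1 and 1.19 for Mt2 in WT OIR. Calls over all genes moved more. In WT OIR filterByExpr gave 586 against 886, in Casp1 KO OIR all 12 libraries gave 642 against 1038, and between genotypes in normoxia DESeq2 gave 444 and all 12 libraries 109 against 233. Between genotypes in OIR the 131 calls became 82 with DESeq2, 16 with filterByExpr, 17 with a minimum of 10 counts per library and 255 with all 12 libraries, and in the interaction 277 became 139 and 152 with these filters. With each library left out, calls ran from 545 to 1130 in WT OIR, 128 to 199 and 47 to 815 between genotypes in normoxia and OIR, and 174 to 597 in the interaction, with 815 and 597 without WT OIR replicate 3. The causes were not tested. Depth limits Mt3 most, at 39 to 336 reads a library.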
